A study of Homo sapiens with 19 samples.

Results

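The core spliceosome components described here are 45 protein genes, listed by name: 8 of the U1 snRNP or associated with it, 14 that recognise the branch point and the 3′ splice site or belong to the U2 snRNP, 8 of the Sm ring, 11 of the U5 snRNP and the U4/U6.U5 tri-snRNP, and 4 of the Prp19 complex and the catalytic step. They were found by gene symbol in the 15 rMATS tables and in the AKAP8 peak lists. Of these, 38 had a gene level, of 9212 genes with a level in all, and 9016 genes were tested, all 38 members among them. The other 7 members (SF3A1, SF3A2, SF3B4, SF3B5, PRPF4, SART1 and CWC22) had no skipped exon event common to all 3 comparisons and so no level. SF3B4 and SF3B5 had no splicing event of any type in any table.

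HMLE/Twist-ER cells are a Tert-immortalized human mammary epithelial line that carries the transcription factor Twist fused to the estrogen receptor, and every group shared this transgene. Untreated cells are the epithelial state (EPI), and cells treated with 20 nM tamoxifen until they had taken on a mesenchymal morphology are the mesenchymal state (MES), so the epithelial-mesenchymal transition (EMT) is compared together with the drug that starts it. Cells in either state stably expressed, from a lentiviral vector, a non-specific control shRNA or an shRNA against AKAP8, a nuclear RNA-binding protein that the study examined as a splicing factor. RNA-seq covered 3 EPI control, 3 EPI knockdown, 3 MES control and 2 MES knockdown libraries, and AKAP8 seCLIP with matched input covered 2 replicates in each state. The study calls the replicates biological, and neither it nor the labels say what was separate between them, so p-values measure the spread between these libraries. The EPI control libraries are shared by the EPI knockdown and EMT comparisons, and MES control libraries by the MES knockdown and EMT comparisons.

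The spliceosome removes introns by assembling anew on each transcript. U1 snRNP pairs with the 5′ splice site, SF1 and the U2AF pair mark the branch point and the 3′ splice site, and U2 snRNP with its SF3A and SF3B complexes replaces SF1. The tri-snRNP then joins, and the Prp19 complex stabilises the catalytic core. Sm proteins form the ring on which the U1, U2, U4 and U5 particles are built. Several genes of splicing proteins carry "poison" exons, whose inclusion brings a premature stop codon and exposes the transcript to nonsense-mediated decay (NMD).

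The results on splicing turn on 3 such exons, each found in the Gencode annotation lifted to GRCh37 only in transcripts without a full reading frame. The SNRNP70 and LUC7L3 exons are shown from their first base to the stop codon that an NMD transcript is annotated to use, and the RBM39 exon over the 30 bases that end at that codon, 5′ to 3′ on the strand of the gene, with the stop codon in capitals. The SNRNP70 exon lies at chr19:49605371-49605442 on the plus strand and is 72 nt long, with a longer form of 1474 nt that starts at the same base. The LUC7L3 exon lies at chr17:48814648-48814840 on the plus strand (193 nt), and the RBM39 exon at chr20:34322108-34322179 on the minus strand (72 nt).
SNRNP70 chr19:49605371-49605396: ccaccacgcagctggcttgcagcTGA
LUC7L3 chr17:48814648-48814721: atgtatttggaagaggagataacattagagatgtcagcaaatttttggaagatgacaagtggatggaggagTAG
RBM39 chr20:34322137-34322166: ctccttggaaagctctacatctccttgTGA

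AKAP8 peaks lay over 6 of the 45 genes in at least 1 state. Peaks over 5 of them are shown to let a reader see the sequence under the immunoprecipitated fragments, with runs of 3 or more G in capitals. For U2AF2, LUC7L, SF3A2 and PRPF6 they are the strongest of the state named, for U2AF2 the first of 2 at the same value in EPI and of 3 in MES. The SNRNP70 peak of EPI is the strongest outside the long form of the poison exon, since the strongest of all lies inside that form and is not shown, and the SNRNP70 peak of MES is the strongest there and lies inside it. The number of G runs differs between them, from 8 in U2AF2 and SF3A2 to 0 in the SNRNP70 peak of MES. All lie in introns of protein-coding transcripts, and LUC7L is read on the minus strand.
SNRNP70, EPI, chr19:49607595-49607653: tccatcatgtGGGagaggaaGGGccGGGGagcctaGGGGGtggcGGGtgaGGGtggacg
SNRNP70, MES, chr19:49606028-49606051: gcagctgaaggtgtcgtaggtttt
U2AF2, EPI, chr19:56178479-56178608: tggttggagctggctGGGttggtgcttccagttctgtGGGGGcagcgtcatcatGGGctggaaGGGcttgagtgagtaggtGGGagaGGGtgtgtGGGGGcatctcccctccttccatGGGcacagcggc
U2AF2, MES, chr19:56178745-56178793: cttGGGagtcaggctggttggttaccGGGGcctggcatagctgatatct
LUC7L, EPI, chr16:242025-242097: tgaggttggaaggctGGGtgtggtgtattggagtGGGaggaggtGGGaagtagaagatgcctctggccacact
SF3A2, EPI, chr19:2246132-2246249: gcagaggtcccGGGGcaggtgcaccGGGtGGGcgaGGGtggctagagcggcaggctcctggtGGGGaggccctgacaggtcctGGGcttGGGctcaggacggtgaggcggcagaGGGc
PRPF6, MES, chr20:62661530-62661610: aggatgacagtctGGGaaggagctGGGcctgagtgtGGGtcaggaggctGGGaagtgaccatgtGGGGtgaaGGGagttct

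The level of a gene is the sum of inclusion and skipping junction reads over its skipped exon events, scaled by library size, and a read that serves overlapping events counts more than once. Levels are therefore compared between libraries and never between genes, and in bulk RNA fewer cells expressing a gene and less RNA per cell cannot be told apart. Libraries held 21198882 to 28261544 such reads. AKAP8 read 243.8, 309.9 and 245.0 scaled reads in the EPI control libraries and 120.7, 98.8 and 124.8 after knockdown. In MES it read 382.3, 195.8 and 247.7 in the controls and 108.3 and 121.9 after knockdown. The knockdown libraries lay below every control library of their state, at 37.1% to 46.9% of the control mean in EPI and 39.3% to 44.3% in MES. The log2 fold change was -1.20 in either state, with a limma adjusted p of 0.0664 in EPI and 0.0322 in MES. In the control libraries, all 5 epithelial markers tested fell from EPI to MES and all 7 mesenchymal markers rose. The second EPI knockdown library stood apart: it was the highest or the lowest of the 6 EPI libraries for 61.3% of all genes, against 24.1% to 32.2% for each of the others, and for 29 of the 38 members (13 highest and 16 lowest). The counts of members called by level at an adjusted p under 0.05 are given also without it, and so are some other counts.

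In EMT, 4 members changed: PRPF19, SF3A3 and PRPF3 rose and SNRPA1 fell, none of them by as much as 2-fold, while 34 of 38 did not pass (limma, adjusted p under 0.05). Of all genes 23.9% were called in EMT, so 4 of 38 lies below the share of all genes. Under the stricter rule of the study, which also asks for a log2 fold change beyond 1, no member was called, against 12.5% of all genes. At an unadjusted p under 0.05 there were 12 members (31.6%, against 36.3% of all genes). The median member log2 fold change was 0.15 (0.01 over all genes), and the median size of the change was 0.31 against 0.35.

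**Figure D1:**
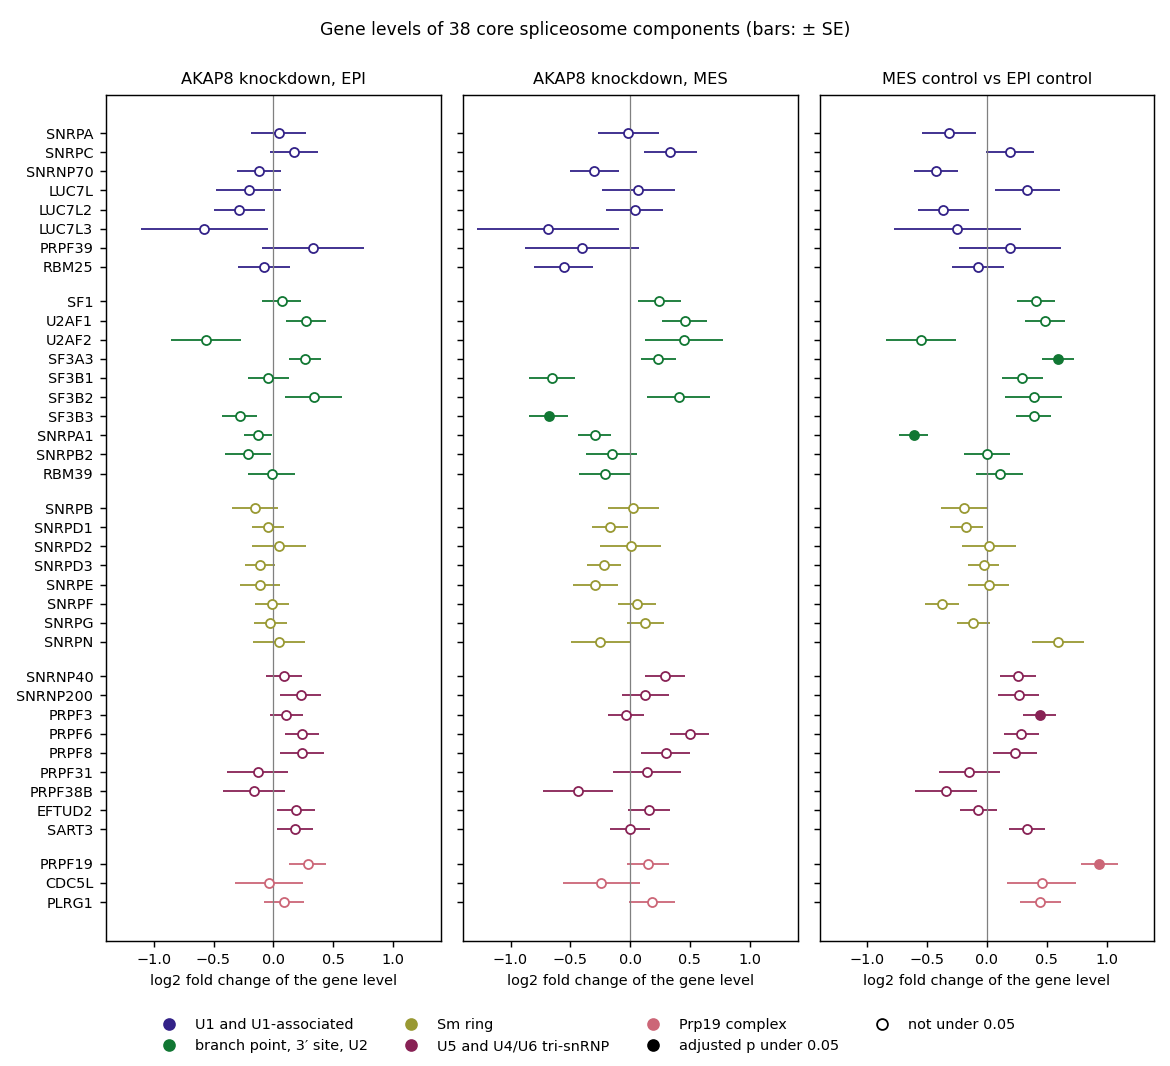
Log2 fold changes in gene level of the 38 core spliceosome components with a level, by role, for AKAP8 knockdown in EPI, AKAP8 knockdown in MES and EMT (MES control over EPI control). Points are limma estimates and bars their standard errors; filled points passed an adjusted p under 0.05, which was 0, 1 and 4 members in the 3 comparisons.

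PRPF19, the ubiquitin ligase after which the Prp19 complex is named, had the largest EMT change of any member. It stood at 2355, 2888 and 2366 scaled reads in the EPI controls and at 5377, 4695 and 4510 in the MES controls. All MES values were above all EPI values, and the log2 fold change was 0.94 ± 0.16 (SE, n = 3 and 3, limma adjusted p = 0.00079). The other 2 tested members of the complex did not pass. PLRG1, a WD-repeat subunit, read 1685, 1577 and 1887 in EPI and 2447, 2288 and 2270 in MES, a log2 fold change of 0.45 ± 0.17 (SE, limma adjusted p = 0.0740). CDC5L, a Myb-related subunit, differed by 0.46 ± 0.29 (SE, limma adjusted p = 0.274). In both genes the groups did not overlap.

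Of the 10 tested branch point and U2 members, SF3A3 rose and SNRPA1 fell. SF3A3, a subunit of the SF3A complex of U2 snRNP, read 3403, 3696 and 3299 in EPI and 5798, 5339 and 4598 in MES (0.59 ± 0.13 SE, limma adjusted p = 0.0058). SNRPA1, a protein of the U2 snRNP that binds U2 snRNA, read 6505, 5994 and 5834 in EPI and 4179, 3702 and 4121 in MES (-0.61 ± 0.12 SE, limma adjusted p = 0.0026). These U2 proteins thus moved in opposite directions, each with groups that did not overlap. The partner of SNRPA1 on U2 snRNA, SNRPB2, differed by 0.00 ± 0.19 (SE). Among the members of this role that did not pass, the nearest to the threshold were U2AF1, the small U2AF subunit that reads the AG at the intron end, at 0.48 (limma adjusted p = 0.0537), SF3B3 at 0.39 (0.0727) and SF1 at 0.41 (0.0816). U2AF2, the large subunit, stood at -0.55 (0.194). Fold changes of the 10 ran from -0.61 to 0.59.

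PRPF3, a U4/U6 protein, was the only one of 9 tested tri-snRNP members to pass. It read 1239, 1392 and 1411 in EPI and 1643, 2035 and 1817 in MES, with no overlap between the groups (0.44 ± 0.14 SE, limma adjusted p = 0.0327). That call was lost when any 1 of 5 libraries was left out (adjusted p 0.0574 to 0.151 without any of the 3 EPI controls, without the second MES control and without the third). The U5 proteins PRPF8 and SNRNP200, which form and remodel the catalytic centre, differed by 0.24 and 0.26 without passing, and EFTUD2, the U5 GTPase, by -0.07.

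None of the 8 U1 members and none of the 8 Sm members passed. The largest U1 difference was in SNRNP70, which encodes the U1-70K protein that binds U1 snRNA: 7966, 8891 and 6546 in EPI against 5680, 5440 and 6213 in MES (-0.42 ± 0.18 SE, limma adjusted p = 0.112). The largest Sm difference was in SNRPN, a relative of SNRPB with a tissue-restricted expression: 3931, 3919 and 3300 in EPI against 6286, 5738 and 4883 in MES (0.60 ± 0.22 SE, limma adjusted p = 0.0632). In both, the EPI and MES libraries did not overlap. SNRPN and SNRPB are alike in sequence, and the authors kept no read that aligned to more than 1 place, so reads that fit both genes are not in these levels. The other 7 Sm members lay between -0.38 (SNRPF) and 0.02, with SNRPD2, SNRPD3 and SNRPE within 0.03 of 0.

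**Figure D2:**
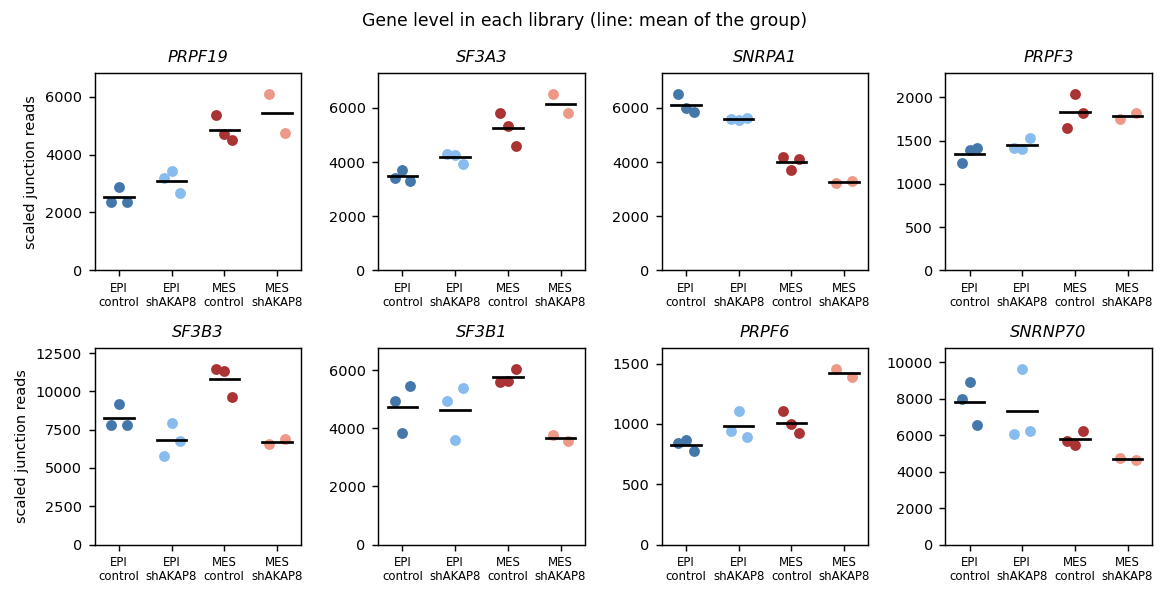
Scaled junction reads of named members in each library (y axis, from 0) for the 4 groups on the x axis; each point is a library and each line the group mean. PRPF19, SF3A3 and PRPF3 are higher and SNRPA1 lower in every MES control than in every EPI control, and SF3B3 is lower in both MES knockdown libraries than in any MES control.

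The number of members called in EMT depended on a library outside the comparison, through the spread that all groups share in the fit. Without the second EPI knockdown library, 12 members passed (33.1% of all genes did): CDC5L, PLRG1, PRPF19, PRPF3, SF1, SF3A3, SF3B3, SNRPN and U2AF1 rose and SNRNP70, SNRPA1 and SNRPF fell. PRPF19, SF3A3 and SNRPA1 passed under each of 17 alternatives that kept this threshold, and with total reads as the scaling, which moved the median of all genes to -0.10, SNRNP70 and SNRPF passed and PRPF3 did not. Of 14 proliferation markers tested, 2 rose in EMT (TYMS by 1.53 and MCM3 by 0.52 on the log2 scale), with a median of 0.07. The part of proliferation in the members' changes was not tested.

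After AKAP8 knockdown in EPI no member passed, where 0.255% of all genes were called (0.189% under the stricter rule, again no member). At an unadjusted p under 0.05 there was also no member in limma, against 890 of 9016 genes (9.87%). Log2 fold changes ran from -0.58 (LUC7L3) to 0.34 (SF3B2), with a median of -0.01 and a median size of 0.14, against 0.18 over all genes. Their standard errors had a median of 0.18.

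The 3 members with the smallest p in EPI were SF3A3, U2AF2 and SF3B3. SF3A3 read 4310, 4270 and 3932 after knockdown, each above the 3403, 3696 and 3299 of the controls (0.27 ± 0.13 SE, limma adjusted p = 0.566, and 0.367 with the place in the list as a replicate block). U2AF2 read 1077, 1122 and 742 in controls and 934, 494 and 600 after knockdown, and SF3B3, the large WD-repeat subunit of SF3B, 7818, 9154 and 7791 against 5796, 7925 and 6771. In both of these the groups overlapped, while the knockdown library was lower than the control library at each of the 3 places of the lists (log2 fold changes -0.56 ± 0.29 and -0.28 ± 0.15 SE, limma adjusted p = 0.598 and 0.602, and 0.460 and 0.391 with the place as a replicate block). Without the second knockdown library still no member passed (85 genes of all did), and without the libraries at the second place of both EPI lists there was none either. In that last setting 3 members had an unadjusted p under 0.05 in limma. The share of all genes at that p is not given there, so the count has no background.

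In MES, 1 member changed after knockdown: SF3B3 fell. It read 11481, 11328 and 9643 in the MES controls and 6565 and 6879 in the knockdown libraries, with both knockdown values below all controls (-0.68 ± 0.17 SE, n = 3 and 2, limma adjusted p = 0.0378). Among all genes 4.16% were called, and under the stricter rule 2.27% of genes and no member. The call was lost when any 1 of 6 libraries was left out, which were the EPI controls other than the second, the MES controls other than the third, and either MES knockdown library (adjusted p 0.0527 to 0.188). SF3B1, the SF3B subunit that clamps the branch point helix, read 5596, 5642 and 6051 in controls and 3763 and 3573 after knockdown (-0.65 ± 0.19 SE, limma adjusted p = 0.0759). PRPF6, which bridges the U5 and U4/U6 particles, read 1110, 996 and 928 against 1459 and 1389 (0.50 ± 0.16 SE, limma adjusted p = 0.0988). For these 2 the groups stood apart, and they passed without the second EPI knockdown library (adjusted p = 0.0129 and 0.0319), where 3 members and 13.9% of all genes were called.

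By role, the MES knockdown fold changes ran from -0.68 to 0.34 in U1 members, -0.68 to 0.46 in branch point and U2 members, -0.29 to 0.13 in the Sm ring, -0.44 to 0.50 in the tri-snRNP and -0.24 to 0.18 in the Prp19 complex. The highest in the U2 role was U2AF1 (0.46, limma adjusted p = 0.180), which read 11884, 11815 and 9961 in controls and 15666 and 15044 after knockdown. The lowest among U1 members was LUC7L3 (-0.68 ± 0.59 SE), whose control libraries themselves ran from 605.7 to 1068. At an unadjusted p under 0.05 there were 6 members (15.8%, against 21.8% of all genes). The median size of a member's change was 0.24, against 0.31 over all genes. Proliferation markers had a median of -0.38 in this comparison, with 0 of 14 called by limma, and their part was not tested.

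Whether the knockdown effect differed between the states was tested directly. No member passed in limma, and 0.0111% of all genes did. At an unadjusted p under 0.05 were 2 members (590 of all genes): SF3B1, where the MES effect was lower than the EPI effect by 0.61 ± 0.26 (SE, limma adjusted p = 0.749), and U2AF2, where it was higher by 1.01 ± 0.44 (SE, limma adjusted p = 0.753). The U2AF2 difference was 0.45 without the second MES knockdown library, which read 1331, and 1.58 without the first, which read 605 (limma adjusted p = 0.945 and 0.296). Without the second EPI knockdown library still no member passed in limma, while 14 of all genes did at the adjusted p. In that setting 4 members had an unadjusted p under 0.05 (CDC5L, PRPF39, RBM25 and SF3B1). The share of all genes at the unadjusted p is not given there, so that count has no background.

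**Figure D3:**
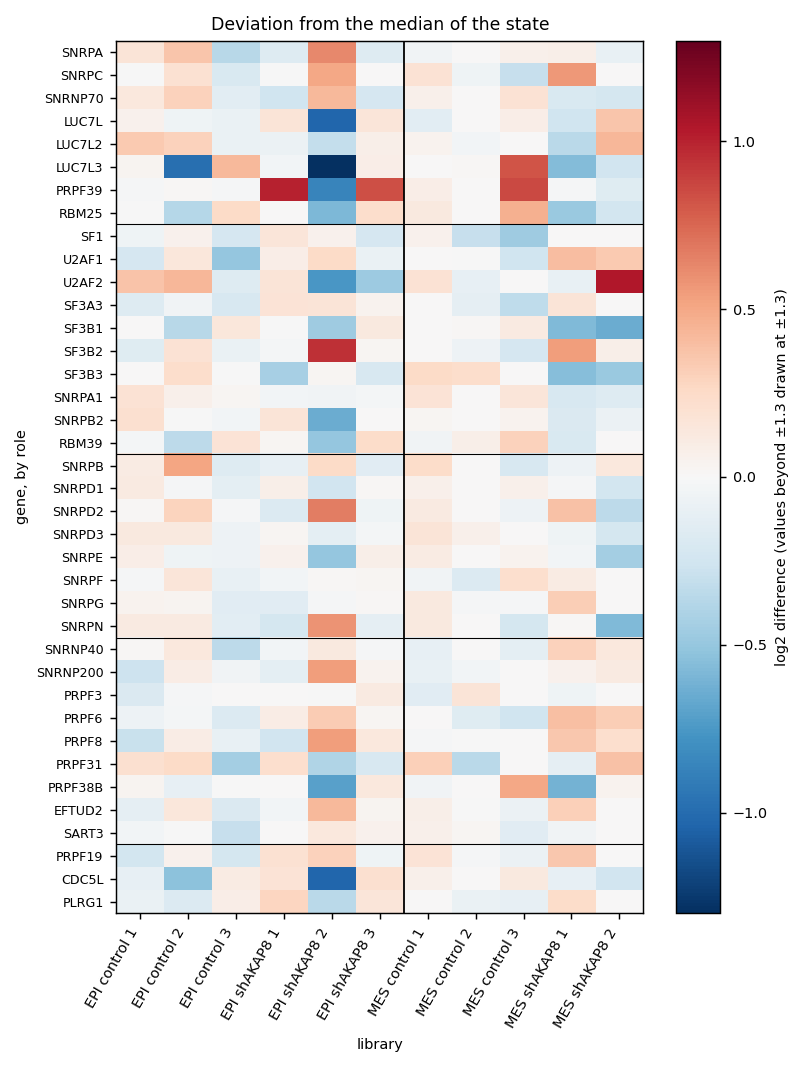
Deviation of each member's log2 level (rows, by role) from the median of the libraries of the same state, in each of the 11 libraries (columns). The second EPI knockdown library departs most often, with 13 members at their highest and 16 at their lowest of the 6 EPI libraries.

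A list of 103 other spliceosome genes (the LSM ring, further U1, U2 and tri-snRNP factors, catalytic and release factors, the minor spliceosome, the exon junction complex and snRNP assembly) gave 70 tested genes. None passed in EPI. In MES, BUD31 (0.87, limma adjusted p = 0.0121), a subunit of the activated spliceosome, and WDR77 (0.69, limma adjusted p = 0.0468), a methylosome protein that serves Sm assembly, rose after knockdown. In EMT, 4 rose and 1 fell: MAGOHB (0.93) and CASC3 (0.65) of the exon junction complex, SUGP1 (0.79) and DDX42 (0.49), which act with U2 snRNP, rose, and PRPF40B, a U1-associated factor, fell by 0.88 on the log2 scale. Their medians were 0.05, 0.05 and 0.12 in the 3 comparisons. Without the second EPI knockdown library 1 gene rose in EPI (MAGOHB), 3 rose and 4 fell in MES, and 10 rose and 4 fell in EMT.

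Splicing of the members' own transcripts was measured as percent spliced in (PSI), the length-corrected share of junction reads that include the variable segment. The tables held 311 member events for EPI knockdown, 276 for MES knockdown and 309 for EMT, of which 297, 266 and 296 had at least 20 reads per library on average and were tested. The MES knockdown tables hold 2 of the 3 MES controls, so that comparison is of 2 against 2 libraries, while the others are of 3 against 3. No member event changed, meaning an FDR under 0.05 and a difference of at least 10 percentage points, in any of the 3 comparisons. Among all events, 0.0492% changed after knockdown in EPI, 0.054% after knockdown in MES and 1.59% in EMT. The count of 0 turned on single libraries. Without the second EPI control 2 member events changed in EMT (a skipped exon each of LUC7L and LUC7L3), beside 833 of 67386 events in all. Without the third MES control 3 did (the same genes and a retained intron of RBM25), beside 1258 of 67493. Leaving out the first MES knockdown library leaves 1 in that group. Mutually exclusive exons of LUC7L2 and PRPF19 then differed by 11.9 and 13.2 points in MES. In the quasi-binomial test with limma-moderated dispersion, an unadjusted p under 0.05 was reached by 14, 9 and 35 member events (4.71%, 3.38% and 11.8%), beside 4.76%, 3.89% and 11.6% of all events. Pooled over event types, the members' differences had a smaller median size than those of all events: 0.279, 0.340 and 0.282 percentage points against 0.777, 1.01 and 0.934. By type the median was larger in members only for alternative 3′ splice sites after EPI knockdown (10 events, 1.51 points against 1.38). Events were not matched for reads or PSI. Differences of at least 10 points were found in 2, 2 and 3 member events, or 0.673%, 0.752% and 1.01% against 2.87%, 4.41% and 6.01%. The PSI of most member exons is near its upper end: exons found in a protein-coding transcript, 189 of the 211 skipped exons tested in EMT, had a median PSI of 99.9% in EPI and in MES controls. The interaction of state and knockdown was tested for 122 member skipped exons, of which 8 reached an unadjusted p under 0.05. None had an FDR under 0.05, which 0.00993% of all skipped exons had. The share of all skipped exons at the unadjusted p is not given, so the count of 8 has no background.

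With no minimum on the difference, 5 member events had an FDR under 0.05 in EMT (2.74% of all events did), and none after either knockdown with all libraries. Without the second EPI knockdown library both forms of the SNRNP70 exon described next had one in EPI. All 5 EMT events lie in SNRNP70, LUC7L3 and RBM39. Of these, 4 are skipped exons annotated only in transcripts for NMD or with no defined reading frame, shown above up to their stop codons. Grouped by annotation after these values had been seen, 16 tested skipped exons in 8 members occurred in NMD transcripts and in no coding one, of which 4 had an FDR under 0.05, and 0 of the 189 coding exons did (14 of the 189 had an unadjusted p under 0.05). Both forms of the SNRNP70 exon, which share a junction, are among the 4. The shares of such exons and of coding exons over all genes were not computed, so the contrast is not shown to be particular to the members. The 16 had a median PSI of 2.32% in EPI and 2.77% in MES, and their difference was above 0 in 11 and below 0 in 5.

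The 72-nt SNRNP70 exon was included in 0.371%, 0.0694% and 0.841% of EPI control transcripts and in 2.87%, 1.76% and 1.87% of MES control transcripts by junction reads. Every MES value was above every EPI value, a rise of 1.74 percentage points (FDR = 1.25e-06, quasi-binomial test with limma). Between 938 and 1679 junction reads, inclusion and skipping together, lay behind each value. At the low PSI of the EPI controls, few of these were inclusion reads. The 1474-nt form, which shares its upstream junction and is not a separate measurement, read 0.446%, 0.119% and 0.947% against 3.27%, 1.83% and 2.34% (1.98 points, limma-moderated FDR = 3.45e-08). After AKAP8 knockdown in EPI the 72-nt exon stood at 2.0%, 0.154% and 1.96%, with the second library low as in the controls and the other 2 above all controls (0.946 points, FDR = 0.566). Without that second knockdown library the difference was 1.56 points (limma-moderated FDR = 0.000465), and 1.63 points for the long form (FDR = 0.00011), on 2 knockdown libraries and 3 controls. After knockdown in MES it stood at 3.48% and 2.75%, beside 2.87% and 1.76% in its 2 controls, with overlap (0.802 points, FDR = 0.763).

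RBM39 is an SR-like protein related to the large U2AF subunit. Its poison exon read 0.783%, 0.0750% and 1.20% in EPI and 2.13%, 2.21% and 3.93% in MES, with no overlap (2.07 points, limma-moderated FDR = 0.00022). Inclusion and skipping reads together numbered 777 to 1079 per library, and few of those in EPI were inclusion reads. The EPI knockdown values were 1.98%, 0.324% and 1.06%, and the MES knockdown values 2.62% and 2.28%, which was no call in either state. In SNRNP70 and RBM39 the library at the second place of each EPI list had the lowest inclusion of its group.

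LUC7L3, a relative of the yeast U1 protein Luc7, went the other way. Its 193-nt exon read 16.6%, 9.91% and 17.3% in EPI and 4.36%, 4.18% and 9.26% in MES, with every MES value below every EPI value (-8.68 points, limma-moderated FDR = 0.000104). Reads per library ran from 244 to 594. The EPI knockdown libraries read 9.01%, 14.6% and 12.5%, overlapping the controls (-2.58 points, FDR = 0.705), and the MES knockdown libraries 4.83% and 1.43%.

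The fifth event was a pair of mutually exclusive exons of SNRNP70 near the start of the gene, chr19:49589662-49589818 (157 nt) against chr19:49593548-49593610. The first exon of the pair was used in 41.8%, 44.3% and 37.3% of reads in EPI and in 36.7%, 34.0% and 32.1% in MES, without overlap (-6.87 points, limma-moderated FDR = 0.0017). The call was lost without the second EPI control (-5.27 points, FDR = 0.0700). All 5 events kept their direction and lost an FDR under 0.05 when limma was applied to the logit of PSI (FDR 0.110 to 0.398).

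**Figure D4:**
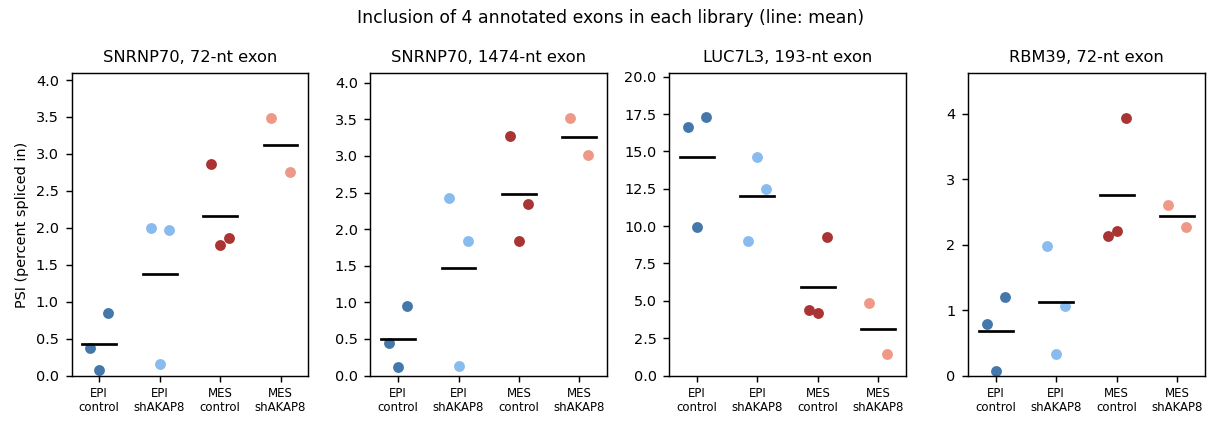
PSI in percent (y axis, from 0) of the SNRNP70, LUC7L3 and RBM39 exons that occur only in transcripts without a full reading frame, in each library of the 4 groups; points are libraries and lines group means. SNRNP70 and RBM39 inclusion is higher and LUC7L3 inclusion lower in every MES control than in every EPI control.

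The largest differences, none of which passed, were in retained introns, mutually exclusive exons and a skipped exon, with means of 22.5 to 203 reads per library. PRPF39, a U1-associated protein, had a retained intron in 41.8% and 49.5% of reads in MES controls and in 22.4% and 27.5% after knockdown, with 41 to 78 reads per library (-20.7 points, FDR = 0.515). In EPI its 335-nt exon of an NMD transcript read 30%, 36.2% and 30.4% in controls and 39.7%, 51.1% and 45.9% after knockdown (13.4 points, FDR = 0.705). A retained intron of SNRPA1 read 75.8%, 63.4% and 68.4% in EPI and 39.1%, 45.3% and 70.2% in MES (-17.7 points, FDR = 0.452). The groups stood apart for PRPF39 and overlapped for SNRPA1, through the third MES control. A retained intron of SNRPE, an Sm protein, read 34.7%, 25.4% and 29.3% in EPI and 15.6%, 14.6% and 28.1% in MES (-10.4 points, FDR = 0.485). Mutually exclusive exons differed by at least 10 points in PRPF39 after EPI knockdown (-12.3 points, FDR = 0.682), in LUC7L3 after MES knockdown (-13.4 points, FDR = 0.999) and in LUC7L in EMT (10.2 points, FDR = 0.270). For LUC7L3 that event had 10 to 33 reads per library.

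By role, U1 members held 4 of the 5 EMT events with an FDR under 0.05, which 2.74% of all events had. The 4 lie in SNRNP70 and LUC7L3, and both forms of the SNRNP70 exon are among them. Of the 53 tested events of U1 members, 13 had an unadjusted p under 0.05, against 11.6% of all events. The counts at that p were 11 of 121 for branch point and U2 members, 4 of 37 for the Sm ring, 5 of 69 for the tri-snRNP and 2 of 16 for the Prp19 complex. U1 members had the largest median difference of the 5 roles in EMT and in the MES knockdown, 0.678 and 0.763 points, and the Sm ring had the smallest in EMT, 0.0977 points. Events of 1 gene share junction reads and are not replicates, so these counts are descriptions.

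AKAP8 seCLIP peaks were deposited as 1 list per state, each merged from 2 replicates, so no replicate spread can be given. The EPI list held 13 peaks over 4 members (8.89% of 45) and the MES list 27 peaks over 6 members (13.3%). Of the 38 members with a level, 3 had a peak in EPI and 5 in MES (7.89% and 13.2%), against 22.4% and 15.6% of genes with a level. The median gene length was 23187 bases in members and 40052 in all these genes, and its part in the shares was not tested. The other spliceosome genes stood at 9 and 8 of 100. Of the 13 EPI peaks, 9 overlapped a MES peak (69.2%), and 9 of the 27 MES peaks overlapped an EPI peak (33.3%).

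SNRNP70 had the most peaks: 7 in EPI and 11 in MES, in 5 and 9 separate regions. All lay in or near the poison exon described above. In EPI, 3 lay inside the 1474-nt form and 4 in the intron after it, and in MES 6 lay inside, 4 after and 1 in the intron before, 29 bases from the exon start. The strongest EPI peak had a log2 of IP over input of 4.35 with a -log10 adjusted p of 40.4, and the strongest MES peak 3.16. The overlap of place is a description, and a link between binding and inclusion was not tested.

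**Figure D5:**
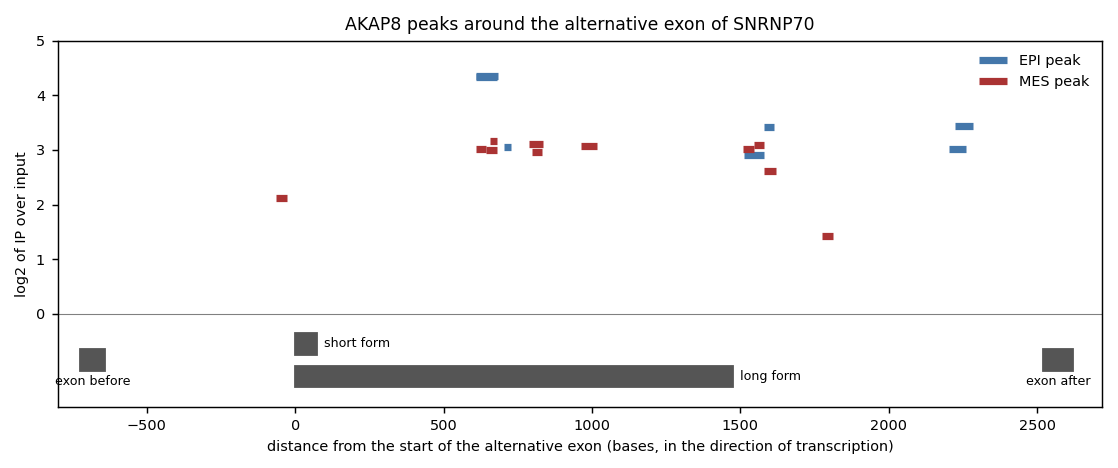
AKAP8 peaks over SNRNP70 by distance in bases from the start of the poison exon (x axis, direction of transcription) and log2 of IP over input (y axis), for EPI and MES, with the exon before, the 72-nt and 1474-nt forms and the exon after drawn as boxes. Of 7 EPI peaks 3, and of 11 MES peaks 6, lie within the long form.

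U2AF2 had 3 peaks in EPI and 9 in MES, all in introns, with the strongest at 4.73 and 4.08. SF3A2, a subunit of SF3A with no level here, had 2 in EPI (up to 4.36) and 1 in MES (2.29) at the same place, and LUC7L had 1 in each state (4.32 and 3.51), which did not overlap. PRPF6 had 4 peaks (up to 3.57) and SNRPN 1 (3.10) in MES only. Apart from the SNRNP70 peaks inside exons of NMD or retained-intron transcripts, every member peak lay in an intron of all annotated transcripts. With all libraries, no member with a peak had a level or an event that passed after AKAP8 knockdown. Without the second EPI knockdown library the SNRNP70 exon had the FDR given above in EPI. In that setting the level of PRPF6 also passed in MES (limma adjusted p = 0.0319), where 13.9% of all genes did. The GGG motif (3 or more G in a row on the strand of the gene) occurred within the 101 bases around the middle of all 13 EPI and all 27 MES member peaks, with a median of 7 and 5 runs. Over all peaks of the lists 99.9% and 99.6% held it, with medians of 6 and 5, so the members' share is that of the lists.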

How the data were processed

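The authors sequenced poly(A) RNA, aligned it to GRCh37 with STAR 2.6.1a and counted splicing events with rMATS. Their tables give, per library and in other columns beside fold changes and p-values of their own that were not used, the inclusion and skipping read counts as deposited. The 30 columns of the authors' PSI were not used either, and PSI was recomputed. Libraries are numbered by their place in the list of their group.

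Gene levels are sums over skipped exon events present in all 3 comparisons, scaled between libraries with size factors (median of ratios). A gene entered the test if 2 or more libraries reached a scaled 10. It used limma 3.58.1 (trend, R 4.3.3) on log2(value + 1), with the 11 libraries in 1 fit. Fold changes are on that scale. PSI was tested per event type with a quasi-binomial F test, its dispersion moderated by limma. P-values were adjusted over all genes, and for splicing over all events of the same type. The steps were tested on simulated data. In EPI, deviations from the group mean were shared by control and knockdown libraries of equal place (r = 0.28, 0.58 and 0.49). The main fit does not use these pairs, and its p-values are those given unless a block is named. A fit with the place as a replicate block also called no member level and no member event in EPI.

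The deposited log2 of IP over input and -log10 adjusted p are the authors' values for merged peaks. Their positions were read against a GRCh37 lift of Gencode v44, a later release than that of the authors.

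Members, gene lists and tests were chosen with earlier results of these data known. Named were the called members up to 8 per comparison, otherwise the 3 with the smallest p, the largest EMT change of each role, the called events up to 10, otherwise the 3 with the smallest p and a difference of at least 10 points, and the strongest peaks. Other genes and the events with smaller differences were named after their values were seen.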

Additional observations from a re-analysis of the deposited data

How the results depend on the processing

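PRPF19, SF3A3 and SNRPA1 kept their EMT calls under all 17 alternatives of scaling, pseudocount, filter, summary, block and left-out library, and no member was called in the EPI knockdown under any of 19. PRPF3 lost its EMT call with total reads as the scaling (adjusted p = 0.116) and with a single skipped exon event per gene (0.0648). With 1 library left out and more than 1 in every group, 3 to 12 members were called in EMT, beside 15.0% to 33.1% of all genes. In the MES knockdown 0 to 3 members were, beside 1.43% to 13.9%. With both EPI libraries at the second place left out, an alternative chosen after seeing the data, 10 members were called in EMT and 5 in the MES knockdown. The shares of all genes called in that setting are not given, so these counts have no background. Beyond a log2 fold change of 1, with all libraries, 0 members were called in EMT and 0 in the MES knockdown. With the place in the list as a replicate block, 9 members were called in EMT (2671 genes in all, against 2155), where EPI and MES controls share only a number (r = 0.08, 0.18 and 0.27), and the block changed no other count of members. The block also left 1 of the 5 EMT events with an FDR under 0.05 (the mutually exclusive exons of SNRNP70, 0.0017), while the 72-nt and long SNRNP70 exons stood at 0.120 and 0.0774, LUC7L3 at 0.106 and RBM39 at 0.110. Changed splicing events of members ran from 0 to 3 with 1 library left out in EMT and from 0 to 2 in the MES knockdown, and numbered 5 in EMT with no minimum on the difference. The LUC7L3 mutually exclusive exons ran from -20.4 to 0.70 points with 1 library left out, above 0 without the second MES control. At a log2 of IP over input of at least 4, 1 member (U2AF2) had a peak in MES. Causes were not tested. Over all alternatives of single genes and events, those above included, 312 values kept direction and side of the threshold, 23 lost a call, 6 gained one and 1 reversed. The LUC7L3 mutually exclusive exons rest on 10 to 33 reads per library, where depth limits the value. The left-out-library values of the interaction and of the other spliceosome genes were computed after seeing the data.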
